A study of Mus musculus with 6 samples.

Results

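G2/M transit cells are crypt cells that have copied their DNA and are preparing to divide or dividing, but that carry little or no message of 5 chosen crypt base stem cell genes. They were picked here by their own counts. A barcode had to hold at least 300 genes and at most 25% mitochondrial counts. It also needed at least 1 UMI (a tag that marks 1 captured RNA molecule) on 4 or more of 11 G2/M genes (Mki67, Top2a, Cenpf, Nusap1, Hmmr, Ccnb1, Ccnb2, Cdk1, Ube2c, Birc5 and Ccna2). Finally, it could have UMIs on fewer than 2 of 5 stem genes (Lgr5, Ascl2, Smoc2, Gkn3 and Axin2). This found 839 barcodes, which is 17.2% of the 4890 that passed the filter on genes and mitochondrial counts and came from 13191 in the tables. Of the 839, 377 were from knockout and 462 from flox mice.

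Crypts of the small intestine were taken from C57BL6 mice at 10 weeks of age, released with EDTA and dissociated with trypsin, and single cells were captured in droplets (Drop-seq, which counts polyadenylated RNA at its 3′ end). No mouse or cell was treated. Knockout mice lacked Ptger4 in the epithelium, and the controls carried the floxed gene. Each genotype had 3 collections of droplets from 2 biological replicates; collections 1 and 2 were read from their codes as biological replicate 1 and collection 3 as biological replicate 2, since the labels do not state it. The sources used here do not name the promoter that drove Cre, the exons removed or the number of mice in a biological replicate.

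In the crypt, stem cells at the base feed a transit compartment whose cells divide a few times and then become absorptive or secretory cells. In G2 and mitosis, cyclins A and B activate the kinase Cdk1. Motor proteins build the spindle, kinetochores attach chromosomes to it, and the anaphase-promoting complex, a ubiquitin ligase, then marks cyclin B and securin for destruction so that the chromosomes part. Ptger4 encodes EP4, a receptor for prostaglandin E2 that raises cAMP.

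The cells carried the markers by choice, so these levels describe the rule and support nothing. Levels are given as CPM, a gene's summed count scaled to 1000000 counts of those cells in a collection, as mean ± SD over the 6 collections. Mki67 stood at 909.6 ± 206 CPM against 357 ± 91.7 in all other kept barcodes, and Top2a, which untangles DNA, at 814 ± 180.0 against 298 ± 84.6. Cenpf, Nusap1 and Hmmr stood at 436 ± 91.2, 225 ± 39.9 and 266 ± 31.5 CPM, against 134 ± 38.7, 45.1 ± 11.5 and 61.8 ± 11.1. A UMI of Lgr5 was still found in 13 of the 839 cells, so "without Lgr5" holds for the group's level (3.45 ± 3.12 CPM against 22.4 ± 6.21) but not for each cell. No stem gene was seen in 603 cells and 1 in 236. Just outside the rule lay 349 barcodes with 3 G2/M genes and a median of 1293 UMIs. Just inside it, 257 barcodes with 4 G2/M genes had a median of 1638 UMIs. Both counts are of barcodes with fewer than 2 stem genes. At the other border, 104 barcodes with 4 or more G2/M genes had exactly 2 stem genes.

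The group was epithelial. Of the 839 cells, 807 had UMIs on at least 3 of 12 epithelial genes, and 763 had a UMI of Epcam, the epithelial adhesion molecule. When barcodes were thinned to 1000 UMIs, 90.2% of the G2/M transit cells and 89.8% of the other kept barcodes had 4 or more of these 12 genes. Some of the 839 held immune markers. A UMI of Ptprc, the pan-leukocyte phosphatase, was found in 31. In 23 there were 5 or more T, B or myeloid markers, and 13 of these had fewer than 3 epithelial genes. Whether these were immune cells, mixed barcodes or held RNA from outside the cell was not tested. The summed T and NK markers came to 64.0 to 157 CPM in the knockout collections and 40.0 to 256 in flox. The summed B and plasma markers came to 48.6 to 213 CPM in knockout and 165 to 244 in flox. Col3a1, Pdgfra, Cldn5, Plvap, Acta2 and Tagln, which mark fibroblasts, endothelium and muscle, were at 0 counts. The full fibroblast, endothelial and muscle lists had no UMI in 837, 836 and 838 of the 839 cells. A few cells therefore had UMIs on other genes of these lists. The marks of G2/M and of S phase overlapped, since 214 cells (25.5%) also had UMIs on 4 or more of 16 DNA replication genes.

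Membership followed depth. The G2/M transit cells had a median of 2655 UMIs and the other kept barcodes 1099, and the largest held 104905. No doublet caller was run and doublets were not removed; 76 of the cells had more than 10000 UMIs. Below 750 UMIs 3.01% of kept barcodes met the rule, from 750 to below 1500 UMIs 11.04%, and from 12000 UMIs upward 54.3%. The plot of shares by collection and by depth shows this rise in both genotypes. When each of the 2966 barcodes with at least 1000 UMIs was thinned to 1000, 369 (12.4%) met the rule, against 744 (25.1%) with all of their UMIs. The other 1924 barcodes were too shallow and were left out, 1036 from knockout and 888 from flox. The shares therefore depend on depth, and a barcode that missed the rule is not shown to lack G2/M messages.

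**Figure D1:**
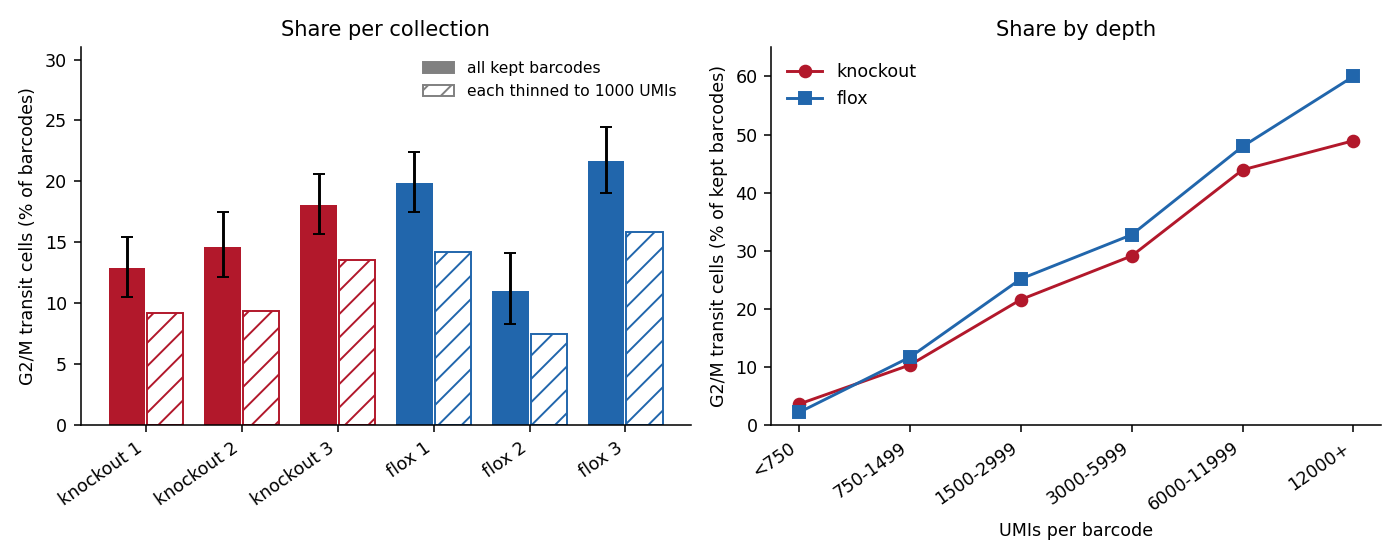
Left, the share of kept barcodes that were G2/M transit cells in each collection (filled bars, with exact 95% binomial intervals) and the share after every barcode of at least 1000 UMIs was thinned to 1000 (hatched bars). Right, the share by UMIs per barcode in each genotype: the knockout line runs from 3.64% to 48.9% and the flox line from 2.21% to 60%.

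Some barcode sequences recurred in more than 1 collection, across genotypes, and the cause was not tested. Of the barcode sequences in the tables, 60 occurred in more than 1 collection, and 58 of these stayed within either the set of knockout 1, flox 1 and flox 2 or the set of knockout 2, knockout 3 and flox 3. Of them, 53 were kept in more than 1 collection, which gave 80 pairs. The smaller copy held a median of 25.4% of the UMIs of the larger. Its log counts correlated with those of the larger at a median r of 0.73, against 0.56 for unshared barcodes matched on depth (both across genes, which are not independent). The group held 53 such barcodes, 24 in knockout and 29 in flox, and 31 were the smaller copy. The cell with 104905 UMIs, in flox 3, made up 13.6% of that collection's G2/M counts, and copies of it were G2/M transit cells of 15656 UMIs in knockout 2 and 13266 in knockout 3. Results are therefore also given without shared barcodes.

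**Figure D2:**
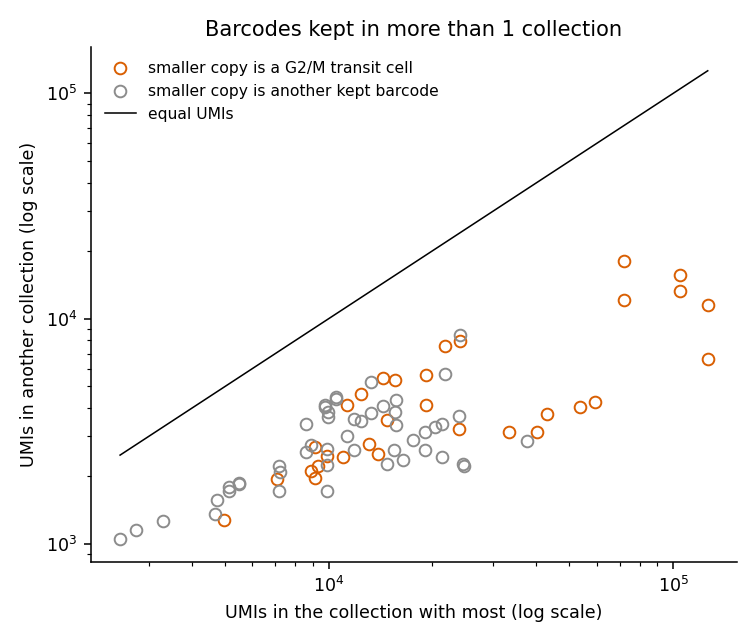
Each point is a pair of kept barcodes with the same sequence in 2 collections, with the UMIs of the larger on the x axis and of the smaller on the y axis, both log scales. All 80 points lie below the line of equal UMIs, the smaller copy holding 5.27% to 42.9% of the larger, and orange points are copies that counted as G2/M transit cells.

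Beyond the rule's genes, the group was led by genes that carry out mitosis. The values below describe the cells that the rule picked, and no test was made of them, since the rule read the same counts. Ratios are log2 of (CPM + 1) in the G2/M transit cells over (CPM + 1) in all other kept barcodes, averaged over the 6 collections. Cdc20, the activator of the anaphase-promoting complex, had the highest ratio among genes of at least 100 CPM. In knockout collections 1 to 3 it reached 225, 169 and 123 CPM, and in flox 1 to 3 203, 185 and 107 CPM. In the other kept barcodes it stood at 33.5, 42.2, 35.9, 77.7, 42.1 and 29.6 CPM in the same order, so the 2 kinds of cell did not overlap in this gene. Its ratio was 1.957, and 1.38 to 2.71 in single collections.

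Spindle proteins followed: Ckap2l (1.71), Tpx2, which brings Aurora A to the spindle (1.61), Kif20b (1.46), Tacc3 (1.37) and the motor Kif15 (1.17). Proteins of the centromere and kinetochore were next to them in order. These were the motor Cenpe (1.57), the centromeric histone Cenpa (1.55), Casc5, which recruits the checkpoint (1.48), and Spc24 (1.09). Cdca8 (1.40) and Incenp (1.30) belong with Aurora B to the chromosomal passenger complex. Prc1 (1.55), which bundles the central spindle, and the motor Kif23 (1.25) act in cytokinesis. Condensin subunits Smc2 (1.18) and Smc4 (1.13), the cohesin subunit Rad21 (0.86) and the chromatin protein Hmgb2 (1.10) shape chromosomes. The other named genes of the 25 were Cdca3 (1.501), Hist1h1e (1.04), Cks2 (1.04), Rbp7 (0.95), Ccdc18 (0.94) and Tuba1b (0.87). Rbp7, a retinol-binding protein, is no cell division gene; it stood at 128 ± 17.6 CPM against 66.4 ± 15.2 and was higher in 6 of 6 collections. All 25, of which 1 is a predicted gene that is not named, were higher in all 6 collections. Of the 6044 genes with at least 20 CPM in these cells, 14.4% were higher in all 6 and 7.38% lower in all 6. Without shared barcodes the median ratio of the 25 was 1.45 in place of 1.25, and all 25 were still higher in all 6 collections.

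**Figure D3:**
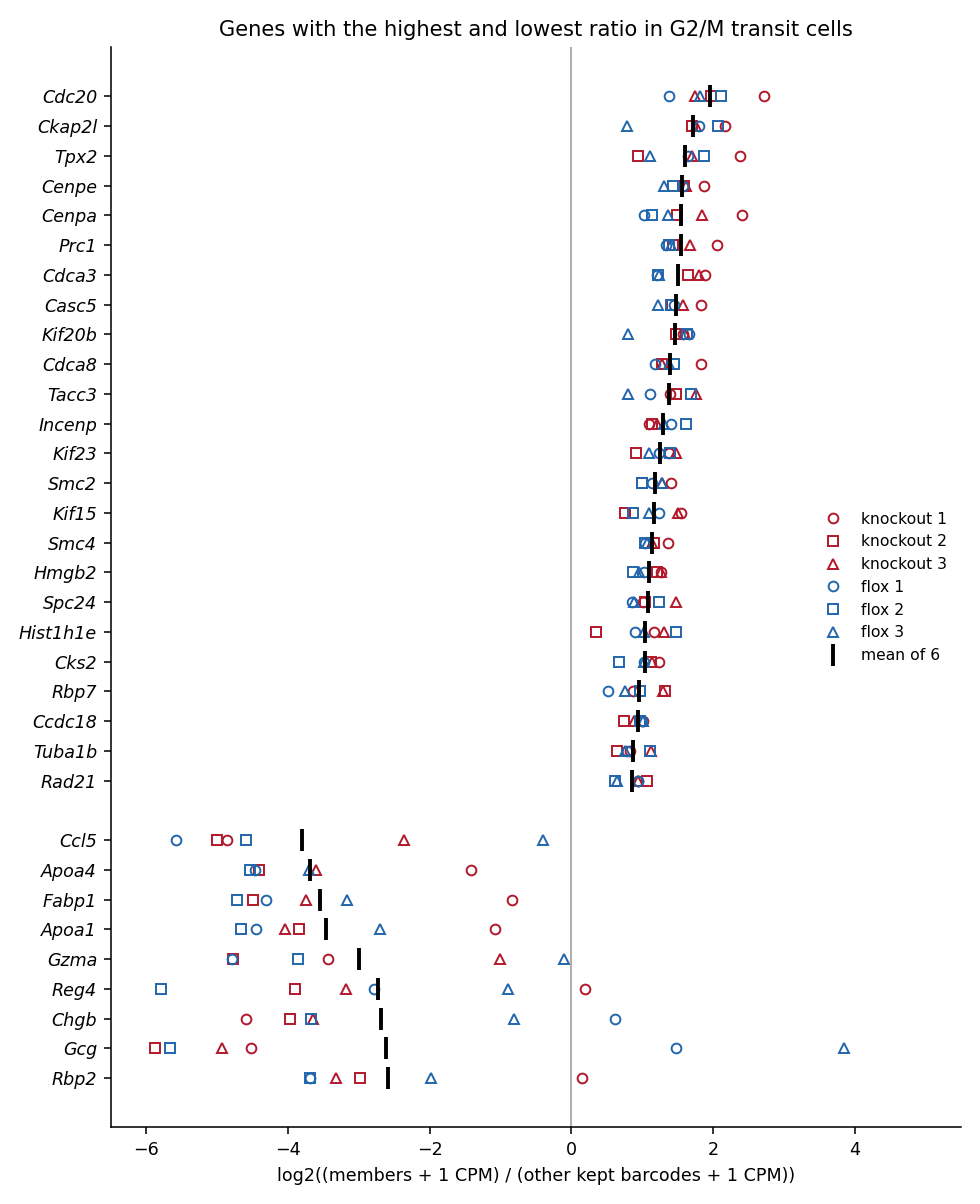
Log2 ratio of CPM + 1 in G2/M transit cells over all other kept barcodes for the 24 named genes with the highest ratio and 9 of the 10 with the lowest, 1 symbol per collection and a bar for the mean of the 6. The upper genes lie between 0.34 and 2.71 in every collection, while the lower ones scatter widely, Gcg from -5.87 to 3.85.

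Many promoters of these genes share 2 short elements. The cell cycle genes homology region (TTTGAA) is bound by MuvB complexes, which hold such genes silent in resting cells and raise them in G2 and M, and CCAAT is bound by NF-Y. Both motifs were searched on both strands in the 300 bases from 250 before to 50 after each RefSeq start (build GRCm38.p6). The motifs TTTGAA and CCAAT can share at most 1 outer letter. RefSeq promoters were matched for 17 of the 25 genes. TTTGAA was found in 11 of these 17, CCAAT in 11 and both in 9. For the 11 G2/M genes of the rule, 10 matched; 7 had TTTGAA, 8 CCAAT and 7 both. Of all 27025 genes with a RefSeq promoter, 20.2% had TTTGAA, 41.1% CCAAT and 7.97% both; per promoter (32851 windows) the shares were 17.9%, 37.4% and 6.95%. Among the 4597 matched genes of at least 20 CPM in these cells the shares were 14.7%, 43.7% and 6.55%. A match is a description of letters and not a bound site.

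The 7 promoters with both motifs in the 120 bases just before the start are shown, 5′ to 3′ on the gene's strand, with motif letters of either orientation in capitals. The first is Cdc20, at chr4:118437344-118437463 on the minus strand, where 12 bases lie between TTTGAA and the start and 30 between it and the nearest upstream CCAAT. Prc1 (chr7:80294356-80294475 on the plus strand), Ckap2l (chr2:129297213-129297332 on the minus strand) and Hmgb2 (chr8:57511723-57511842 on the plus strand) follow. From the rule's genes come Cdk1 (chr10:69352913-69353032 on the minus strand), Top2a (chr11:99024190-99024309 on the minus strand) and Ube2c (chr2:164769809-164769928 on the plus strand). The TTTGAA nearest the start lay 9 to 24 bases before it in all 7, and 23 to 38 bases separated it from the nearest upstream CCAAT in 6 of them; in Ckap2l 5 bases did.
Cdc20: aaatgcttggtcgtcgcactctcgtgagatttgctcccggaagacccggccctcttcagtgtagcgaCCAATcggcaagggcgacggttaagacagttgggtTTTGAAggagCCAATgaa
Prc1: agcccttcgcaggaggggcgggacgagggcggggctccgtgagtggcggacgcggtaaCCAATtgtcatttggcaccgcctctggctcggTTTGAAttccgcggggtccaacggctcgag
Ckap2l: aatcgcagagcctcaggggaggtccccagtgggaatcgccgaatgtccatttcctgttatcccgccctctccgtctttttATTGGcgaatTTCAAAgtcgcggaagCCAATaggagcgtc
Hmgb2: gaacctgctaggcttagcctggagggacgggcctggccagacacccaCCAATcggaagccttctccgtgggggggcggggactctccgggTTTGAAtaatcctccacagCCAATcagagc
Cdk1: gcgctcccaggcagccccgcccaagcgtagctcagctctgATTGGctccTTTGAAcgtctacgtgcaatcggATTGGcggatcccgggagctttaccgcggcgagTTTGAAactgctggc
Top2a: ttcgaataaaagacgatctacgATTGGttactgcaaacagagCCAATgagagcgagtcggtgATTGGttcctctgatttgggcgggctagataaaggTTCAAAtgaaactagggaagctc
Ube2c: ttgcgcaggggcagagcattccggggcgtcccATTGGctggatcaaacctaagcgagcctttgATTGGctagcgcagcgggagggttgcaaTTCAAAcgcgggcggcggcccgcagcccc

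Whole lists were described in the same way. They hold genes already named, such as Cdc20, from the same counts, so they are not separate evidence. These lists, like the choice of cells, were drawn up with earlier results of these data known. A list's members are those of at least 20 CPM outside the rule, and that filter on low values kept genes that are high here. Over all 6044 such genes the median log2 ratio to the other kept barcodes was 0.08. All 26 spindle and motor genes were higher in all 6 collections, with a median ratio of 1.30. Mitotic kinases and their partners had a median of 1.41 (13 of 14 genes higher in all 6), kinetochore and centromere genes 1.22 (19 of 21) and cytokinesis genes 1.17 (9 of 11). The median was 0.71 for condensins and chromatin proteins (18 of 22) and 0.48 for anaphase-promoting and ubiquitin genes (7 of 12). In the last list Cdc20 stood out, while Anapc13, a core subunit, was at 218 ± 50.05 CPM against 206 ± 24.8 and was higher in 4 of 6 collections. Clustered histone genes, whose RNA mostly lacks a poly(A) tail, were seen with 11 of 64 genes at 20 CPM or more; 9 were higher in all 6 and their median ratio was 1.04.

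Replication genes were near the general median, 0.22 over 38 genes, with 8 higher and 1 lower in all 6 collections. Pcna, the polymerase clamp, stood at 177 ± 30.6 CPM against 212 ± 63.3 and was lower in all 6. Genes of fast-growing transit cells, among them Ptma (4448.5 ± 565 against 3153 ± 463 CPM) and the nucleolar protein Ncl (2922 ± 434 against 2541 ± 249.99), had a median of 0.36 and 10 of 13 were higher in all 6. Ribosomal protein genes had a median of 0.11, with 38 of 82 higher in all 6. Neither list was particular to this group, since both were lower here than in the S-phase and stem-marked dividing cells described next.

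The next comparison was with 188 S-phase transit cells. These had 4 or more of the 16 replication genes, fewer than 4 G2/M genes and fewer than 2 stem genes. The same mitotic lists were high, which the choice of both groups by G2/M genes fixes in part. Here the median over all genes was 0.29, with 8.29% higher and 3.74% lower in all 6 collections. Cytokinesis genes had a median ratio of 2.05 and kinases 2.08. Replication genes had a median of -1.05, with 24 of 38 lower in all 6, which the choice of the S-phase cells fixes in part. Genes of fast-growing transit cells had a median of -0.43, with 0 of 13 higher and 7 lower in all 6. Ribosomal protein genes had a median of -0.25, with 0 of 82 higher and 59 lower in all 6. Hmgb1 did not separate the 2 groups (ratio -0.11, higher in 2 of 6), whereas Hmgb2 was higher in 6 of 6 (0.60).

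The 147 barcodes that met the G2/M rule but had 2 or more stem genes differed in other genes. Their median depth was 5057 UMIs, against 2655. The median over all genes was 0.13, with 6.98% higher and 5.01% lower in all 6 collections. Mitotic lists lay near 0, between -0.26 for condensins and chromatin proteins and 0.13 for kinases. Both groups met the same G2/M rule, which fixes this in part. Stem genes that the rule did not use had a median ratio of -0.11 to all other kept barcodes, with 1 of 15 higher and 2 lower in all 6. Against the stem-marked cells they were lower in the G2/M transit cells, with a median of -0.71 and 6 of 15 lower in all 6. The split of the groups by stem genes may fix this in part. Slc12a2, an ion cotransporter of crypt base cells, stood at 267 ± 48.5 CPM in the G2/M transit cells and at a ratio of -1.26, lower in all 6. Ifitm3 had a ratio of -1.77, also lower in all 6. Cdkn1a, the cell cycle inhibitor p21, was higher by 1.82 and the keratin Krt19 by 0.64, both in 6 of 6. Some whole lists moved as well. Genes of fast-growing transit cells had a median of -0.43, with 0 of 13 higher and 10 lower in all 6. Ribosomal protein genes had a median of -0.27, with 0 of 82 higher and 65 lower in all 6. For replication genes it was -0.59, with 0 of 38 higher and 13 lower. Goblet and enterocyte genes, given below, were higher. G1 and exit genes had a median of 0.30, with 4 of 16 higher and 1 lower in all 6. Epithelial genes had a median of 0.36, with 5 of 12 higher and 0 lower in all 6.

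Genes of secretory and absorptive cells were measured next. Goblet genes were 2.97 higher in the median than in the stem-marked G2/M cells, with 11 of 13 higher in all 6 collections. Tff3, a peptide of goblet mucus, stood at 5721, 6176 and 4309 CPM in knockout 1 to 3 and at 3443, 6384 and 4822 CPM in flox 1 to 3. In the stem-marked G2/M cells it stood at 520, 427, 804, 1282, 382 and 727 CPM, with no overlap. Its level was no higher than in the other kept barcodes (ratio -0.38, higher in 1 of 6), and the list's median ratio to them was -0.25. After thinning to 1000 UMIs, 21.5% of both the G2/M transit cells and the other barcodes had 4 or more of 14 goblet genes. The same RNA was also present in barcodes below 100 UMIs, which held 1.20% to 2.30% goblet counts, against 1.15% to 2.26% in the G2/M transit cells. The 2.30%, in flox 1, came from 14 such barcodes with 1089 counts, while flox 2 had 2119 with 110836. The part of free RNA, from outside cells, in these levels was not tested.

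Enterocyte genes were low, with a median ratio of -1.25 to the other kept barcodes and 16 of 17 genes lower in all 6. Apoa4 and Fabp1, which handle dietary lipid, had ratios of -3.69 and -3.54. Knockout 1 was the exception, with 381 CPM of Fabp1 against 15.7 to 37.7 in the other 5 collections. Against the stem-marked cells the enterocyte median was 1.15, with 9 of 17 higher in all 6. Absorptive and Notch genes went both ways against the other kept barcodes, with a median ratio of 0.18 and 3 of 13 higher and 3 lower in all 6. The early absorptive gene Dmbt1 was 823 ± 120 CPM, above the other kept barcodes (478 ± 101) in all 6. Other genes at the low end were Ccl5 and Gzma of intraepithelial lymphocytes (-3.80 and -2.99), Apoa1 (-3.46), Reg4 (-2.73), Chgb (-2.68), Gcg (-2.61) and Rbp2 (-2.59). Reg4, Chgb, Gcg and Rbp2 were not lower in every collection.

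The share of these cells did not differ detectably between genotypes. Knockout collections 1 to 3 had 97, 103 and 177 G2/M transit cells, which is 12.9%, 14.7% and 18.0% of kept barcodes. Flox collections 1 to 3 had 209, 52 and 201, which is 19.8%, 10.99% and 21.7%. The exact 95% (Clopper-Pearson) interval was 8.32% to 14.2% in flox 2 and 17.5% to 22.4% in flox 1. The knockout shares lay within the range of the flox shares, and intervals cover counting error only. Per biological replicate the shares were 13.7% and 18.0% in knockout and 17.1% and 21.7% in flox. The means were 15.9% ± 3.05 and 19.4% ± 3.25 (SD, n = 2 each), a difference of -3.52 percentage points, with knockout lower in both replicates (exact two-sided permutation p = 0.667, where 0.3333 is the smallest that 2 against 2 can give). At 1000 UMIs per barcode the means were 11.4% ± 3.02 and 14.0% ± 2.54, with a difference of -2.62 (exact permutation p = 0.667). Without flox 1 the differences were -0.47 and -0.24, and without flox 3 -1.22 and -0.83. Without shared barcodes they were -3.50 and -2.69.

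For the genotype comparison, counts of these cells were summed per biological replicate and 7748 genes were tested with edgeR's quasi-likelihood test, adjusted by the Benjamini-Hochberg method. Ptger4 itself had 44 counts in 34 of the 839 cells. It stood at 15.2, 17.9 and 10.9 CPM in knockout 1 to 3 and at 11.3, 6.85 and 13.0 CPM in flox 1 to 3, and the genotypes overlapped (log2 fold change 0.28, SE 0.51, adjusted p = 0.9999 by edgeR). Counts at the 3′ end do not show a deletion elsewhere in the gene, so they do not check the labels. Of the genes tested, 1 rose (0.0129%) and 3 fell (0.0387%) at an adjusted p under 0.05, and 222 (2.87%) had an unadjusted p under 0.05.

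The biological replicates differed in Xist, the RNA of the inactive X chromosome of female cells. In the G2/M transit cells it stood at 719.8 CPM in knockout 3 and 763 in flox 3, both of biological replicate 2, and at 0 to 23.0 CPM in the other 4 collections. In knockout 2, 7 of its 9 counts lay in the copy of the largest shared barcode. The labels used here give no sex, and sex cannot be told apart from the replicate number, which ran the same way in both genotypes. With that number as a term in the edgeR fit, 23 genes were called higher and 15 lower; this fit has 4 sums and leaves 1 residual degree of freedom. Mt1, Chgb, Gcg and Defa21 passed in it too. Where it changes the call of a named gene, its value is given beside that gene.

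Mt1, a metallothionein that binds zinc and copper (chr8:94179082-94180327, plus strand, GRCm38), was the gene that rose. It stood at 886, 944 and 1079 CPM in knockout 1 to 3 and at 244, 199 and 198 CPM in flox 1 to 3. Every knockout collection was above every flox collection by a wide margin. The rise was 2.23 on the log2 scale (SE 0.21, adjusted p = 6.28e-05 with edgeR). The rise was spread over cells: no barcode held more than 15.5% of the gene's counts in any collection, and without the top barcode the levels were 806 to 1020 in knockout and 183 to 236 in flox. It passed in all 29 alternative settings, with 2.01 to 2.40. Without shared barcodes it was 2.23, and within each of the 2 barcode-sharing sets 2.01 and 2.38.

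The rise of Mt1 was as large elsewhere in the crypt. The log2 fold change was 2.22 in the S-phase transit cells and 2.19 in all other kept barcodes (adjusted p = 0.00182 by edgeR). The difference of the effect was -0.01 from the S-phase cells (SE 0.28) and -0.01 from the other kept barcodes (SE 0.17), with adjusted p of 0.997 and 0.999 by edgeR. In all other kept barcodes Mt1 alone rose (0.0101% of 9923 genes), none fell, and 2.36% had an unadjusted p under 0.05; in the S-phase cells 4 of 2723 genes rose (0.147%), none fell, and 7.64% had an unadjusted p under 0.05. Within the group Mt1 was lower than in the other kept barcodes in all 6 collections, at a ratio of -0.50. Barcodes that were not kept had 495, 670 and 570 CPM of Mt1 in knockout 1 to 3 and 94.7, 150.1 and 115 CPM in flox 1 to 3. The part of that RNA in the cells' levels was not tested. Mt2, its neighbour on the chromosome (chr8:94172664-94173568, plus strand), stood at 30.5, 46.0 and 91.9 CPM in knockout and 39.0, 44.5 and 14.3 in flox. Its collections overlapped and it did not pass without the replicate term (log2 fold change 1.21, SE 0.42, edgeR adjusted p = 0.9999). With the replicate term it was 1.16 (adjusted p = 0.0263 by edgeR). Within the barcode-sharing set of knockout 2, knockout 3 and flox 3 it was 2.35 (adjusted p = 0.00159 by edgeR), and within the other set -0.40 (0.999). Of the other 10 tested metallothionein and zinc transport genes, none passed.

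The 3 genes that fell were hormone and Paneth cell genes, and 2 of them rested on single barcodes. Chgb, a granule protein of enteroendocrine cells (chr2:132781278-132795079), stood at 36.6, 81.9 and 54.4 CPM in knockout and 314, 140.4 and 208 in flox (log2 fold change -2.04, SE 0.25, edgeR adjusted p = 0.00107). A single barcode held 241 of the 306 Chgb counts of flox 1 (78.8%) and another 117 of the 160 of flox 3 (73.1%). Without the top barcode of each collection Chgb stood at 25.4, 55.0 and 35.4 CPM in knockout and at 67.5, 112 and 56.1 in flox, so the highest knockout and the lowest flox value nearly met.

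Gcg, which encodes proglucagon (chr2:62474530-62483650), stood at 9.14, 2.56 and 3.63 CPM in knockout and 52.4, 3.42 and 55.9 in flox, so flox 2 lay among the knockout values. On the log2 scale the change was -3.33 (SE 0.48, adjusted p = 0.00601 with edgeR), and single barcodes held 90.2% and 93.0% of the counts of flox 1 and flox 3. Of the 839 cells, 15 had UMIs on 4 or more of 17 enteroendocrine markers, 7 in knockout and 8 in flox. The summed markers ranged from 119 to 1266 CPM in knockout and from 226 to 525 in flox, with Scg5 at 0. Without those 15 cells, or without the top barcode of each gene, edgeR called no gene lower and Mt1 alone rose. Chgb was then at -0.33 and -0.79, with an adjusted p of 0.999 and 0.9997 by edgeR.

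Defa21, an α-defensin of Paneth cells (chr8:21025545-21026516), stood at 85.3, 76.7 and 59.3 CPM in knockout and 173, 205 and 204 in flox, without overlap. On the log2 scale the change was -1.43 (SE 0.24, adjusted p = 0.0389 with edgeR). It belongs to a family of near-identical genes that the counting could divide among copies. Without shared barcodes the change was -1.38 with an adjusted p of 0.325 by edgeR, and with DESeq2 it was -1.44 with 0.0778, so the call was lost in both. The same RNA was far more abundant in the barcodes that were not kept. They had 2339, 1910 and 2557 CPM of Defa21 in knockout and 3866, 8323 and 4642 in flox, again without overlap. These barcodes had fewer than 300 genes or more than 25% mitochondrial counts, and they are not shown to be free of cells. The part of free RNA in the fall was not tested.

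**Figure D4:**
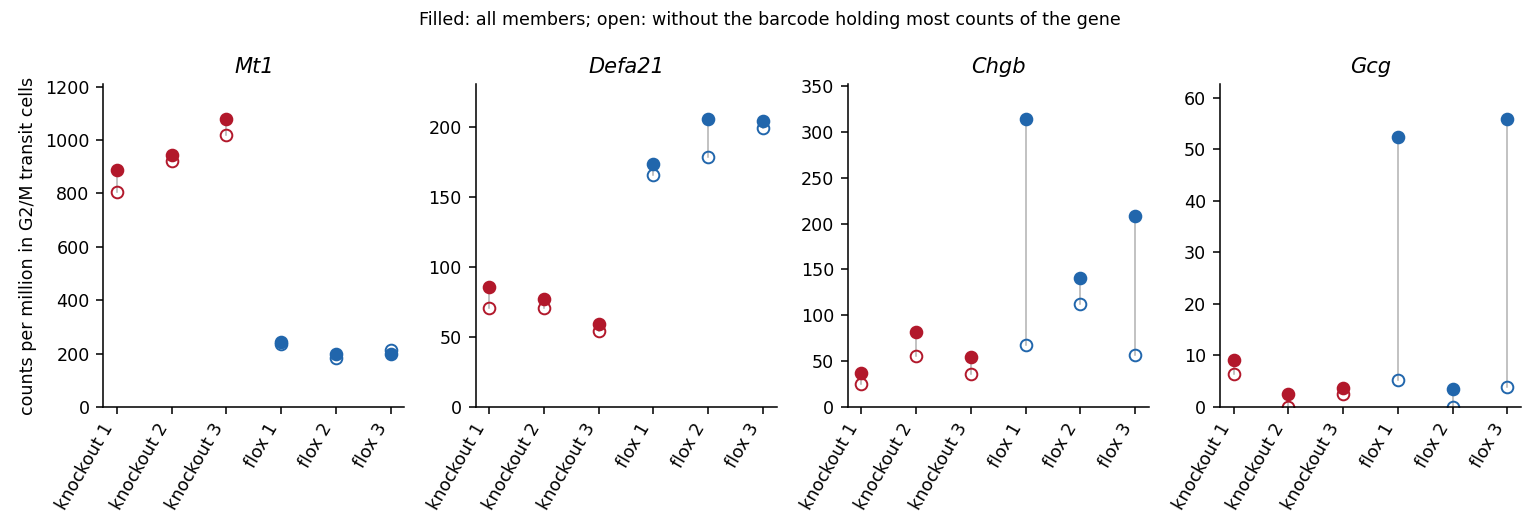
CPM in the G2/M transit cells of each collection for the 4 genes that passed, filled with all cells and open without the barcode that held most of that gene's counts. Mt1 and Defa21 keep their separation, while the flox values of Chgb and Gcg drop, Gcg in flox 1 from 52.4 to 5.16.

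Of 13 Paneth genes tested, Defa21 alone passed, 11 had values below 0 and 9 had an unadjusted p under 0.05; the median log2 fold change was -0.88, against 0.00 over all genes tested. Lyz1, which encodes lysozyme, stood at 140, 136 and 128 CPM in knockout and 192, 390 and 307 in flox, without overlap (-1.002, SE 0.23, edgeR adjusted p = 0.420). A single barcode of 4336 UMIs held 128 of the 236 Lyz1 counts of flox 3 (54.2%), and without it that collection stood at 141 CPM. Without the top barcode of each collection the Lyz1 change was -0.51 (adjusted p = 0.9997 by edgeR). Defa22 was at -0.91 and Defa24 at -0.92, and neither passed. In flox 3 a barcode of the same size held 42.1% of the Defa24 counts, and the level was 1258 CPM without it and 2160 with it. With the replicate term Lyz1 was at -0.9963 (adjusted p = 5.89e-05 by edgeR) and Defa22 at -0.91 (0.00199). The summed list came to 2013 to 2058 CPM in knockout and 2394 to 4609 in flox, with Habp2 at 0. In barcodes below 100 UMIs the Paneth list made up 5.41% to 6.34% of counts in knockout and 6.92% to 9.49% in flox. The 5.41%, in knockout 3, came from 29 such barcodes with 2403 counts, and flox 1 had 14 with 1089. In the G2/M transit cells the list made up 0.201% to 0.206% and 0.239% to 0.461%.

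None of the genes that carry out division passed between genotypes within these cells. Cells of both genotypes had to meet the same G2/M rule, which may fix this in part. The comparison therefore cannot decide whether genotype changes mitotic genes in crypt cells not picked by that rule. In the 6 mitotic lists no tested gene passed with edgeR or DESeq2, and 1, in the anaphase-promoting list, had an unadjusted p under 0.05. The medians lay between -0.08 for condensins and chromatin proteins and 0.15 for kinases. Aurkb, the Aurora B kinase, had the highest value of the kinases at 0.64 (SE 0.46), with flox 3 low at 7.80 CPM against 30.5 to 44.5 in the others. Cdc20 was at 0.06. Of 44 replication genes none passed and 1 had an unadjusted p under 0.05; 12 had values above and 32 below 0, and the median was -0.24; Rrm1, a subunit of ribonucleotide reductase, was at -0.72 (SE 0.27, edgeR adjusted p = 0.9999).

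Of 12 cAMP-responsive genes tested, 2 had values above and 10 below 0, with a median of -0.25. None passed and 1 had an unadjusted p under 0.05. Over all genes tested, 3892 had values above and 3856 below 0. Other lists were also uneven: G1 and exit genes had 3 above and 15 below, and ribosomal protein genes 72 above and 10 below. Whether the cAMP-responsive genes act downstream of EP4 in these cells was not tested. Areg, the EGF receptor ligand amphiregulin, stood at 85.3, 64.0 and 108 CPM in knockout and 128, 182 and 390 in flox without overlap. That is a change of -1.50 on the log2 scale (SE 0.36, adjusted p = 0.576 with edgeR), and a single barcode held 33% of its counts in flox 3. It passed in 7 of 29 alternative settings, and with the replicate term it was at -1.43 (adjusted p = 1.74e-09 by edgeR). Over all 7748 genes, 4.62% had every knockout collection below every flox collection and 2.76% every one above. Among genes of at least 50 CPM the shares were 3.58% and 2.05%. Among the genes on the other side with the smallest unadjusted p and no overlap were Atp5l (0.62), Myeov2 (0.54), mt-Nd3 (0.56) and Pcyt2 (0.57), given as values since none passed. Wnt targets (7 tested, median -0.31), p53 and apoptosis genes (10, -0.11), heat stress genes (11, 0.14), MHC class II genes (6, 0.16) and goblet genes (14, 0.08) had no gene past the threshold with edgeR or DESeq2, and 1, 1, 2, 0 and 3 genes, in that order, with an unadjusted p under 0.05 by edgeR.

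The genotype effect was also compared between kinds of cell. It differed from that in S-phase transit cells for 3 genes in the higher (0.0441%) and 8 in the lower direction (0.118%) of 6804 tested by edgeR. Fabp6 differed by -3.05 and, without the top barcode of each collection, by -2.45 (adjusted p = 5.67e-12 by edgeR), while Zg16 went from 1.41 to -0.61. Against all other kept barcodes 1 of 9645 genes differed in the higher (0.0104%) and 2 in the lower direction (0.0207%). These were Gip at 7.21, Chgb at -2.90 and Gcg at -5.48, all 3 hormone or granule genes of enteroendocrine cells.

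The counts of called genes moved with single collections. Leaving out flox 1 left Mt1 alone, leaving out flox 3 gave 14 higher and 6 lower, and leaving out knockout 3 gave 19 and 5; without collection 3 an arm has 1 sum, assumed to vary like the others. With DESeq2 1 gene was higher and 1 lower.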

How the data were processed

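Drop-seq counts of 6 collections were used. The authors deposited a table of raw counts for each collection, with genes as lines and barcodes as columns; reads were aligned with STAR 2.6 to mm10, according to the submitters' processing notes. No source used here names the annotation, the UMI settings or how the listed barcodes were chosen. Total counts were 1228337 to 3146909 per collection and 291996 to 974107 in the G2/M transit cells, which limits low genes.

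The members and gene lists were chosen with earlier results of these data known. Counts were summed per biological replicate and tested in edgeR 4.0.16 (quasi-likelihood, TMM, filterByExpr at a minimum count of 10, threshold 0.05 after Benjamini-Hochberg adjustment; R 4.3.3), with DESeq2 1.42.0 as an alternative. The labels do not say which collections came from separate mice, so p-values measure the spread between these samples. The difference of effects between 2 kinds of cell was an interaction term with a term per sample. On simulated counts for the genotype comparison (7496 genes), 37 of 100 genes changed by 1 log2 unit and 90 of 99 changed by 2 were recovered, with 11 calls among 7297 unchanged genes. Named genes were Ptger4, Mt1 and Mt2, up to 10 per direction past the threshold, and, where fewer than 6 passed, genes of at least 50 CPM without overlap and with the smallest unadjusted p; against other barcodes, the 25 highest and 10 lowest ratios among genes of at least 100 CPM; up to 6 interaction genes; and up to 4 examples a list. List examples are those of highest CPM; others, such as Ifitm3, Aurkb, Rrm1, Anapc13 and Defa24, were chosen after their values were seen. Gene positions are from GENCODE vM21. Motifs were searched in RefSeq promoters. 2 genes that the rule picks are not reported here.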

Additional observations from a re-analysis of the deposited data

Results flagged for a closer look

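The effect of genotype in G2/M transit cells differed from that in S-phase transit cells for 11 of 6804 genes (3 higher, 0.0441%, and 8 lower, 0.118%, edgeR interaction test, adjusted p under 0.05). The 188 S-phase cells are few, 21 to 40 per collection, and single barcodes held most counts of several of these genes. The 6 genes with the smallest p are given with the difference of log2 fold changes, G2/M minus S-phase. Fabp6, the ileal bile acid-binding protein, differed by -3.05 (SE 0.21); in the S-phase cells it stood at 4166, 284 and 6435 CPM in knockout and 142, 487 and 655 in flox, and 1 barcode held 91.6% and 80.8% of the counts of knockout 1 and 3. Zg16, a goblet granule lectin, differed by 1.41 (SE 0.20), and 1 barcode held 97.5% of its S-phase counts in flox 2. Reg3g and Reg3b, antimicrobial lectins, differed by -1.16 (SE 0.17) and -1.08 (SE 0.17), with 61.3% and 73.4% of the S-phase counts of knockout 1 in 1 barcode. Rn7sk, a small nuclear RNA, differed by 1.99 (SE 0.33), with 72.3% of the S-phase counts of flox 1 in 1 barcode. Gzma, a granzyme of lymphocytes, differed by 3.81 (SE 0.68), with all 34 S-phase counts of flox 1 in 1 barcode. Without the top barcode of each gene the difference was -2.45 for Fabp6, still past the threshold (adjusted p = 5.67e-12 by edgeR), as in all 8 of its alternatives (-3.48 to -1.98). It was -0.57 for Reg3g, -0.25 for Reg3b and 1.22 for Rn7sk, none past the threshold, and -0.61 for Zg16, the other sign. In the G2/M transit cells themselves none of the 6 passed between genotypes.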

How the results depend on the processing

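Mt1 kept its direction and passed in all 29 alternatives. Against 4 genes called in all, 2 were called with 5 or more G2/M genes required and 2 with DESeq2, 22 without a filter on low counts, 7 without cells of 2 or more immune markers, 14 within the first and 25 within the second barcode-sharing set, and 1 without cells of 4 or more enteroendocrine markers, without these and shared barcodes, or without the top barcode of each gene; leaving out 1 collection gave 1 to 24. Biological replicate numbers are shared by different mice; the 2 pairs had r = 0.22, no label says that a number marks a shared day or litter, but Xist was high in replicate 2 of both genotypes; collection numbers correlated at -0.03, 0.10 and 0.28. With the biological replicate number as a block, 38 genes were called, 23 higher and 15 lower, with Lyz1, Areg, Defa22 and Mt2 passing under the block. Chgb passed in 22 of 29, Gcg in 21 of 24 and Defa21 in 18 of 29 alternatives. Mt2 turned to -0.40 within the first barcode-sharing set and was 2.35 within the second, where it passed; it passed in 2 of 29 alternatives in all. The interaction with S-phase cells called 11 genes, 3 with all other kept barcodes in place of S-phase cells, 6 without shared barcodes, 3 without the top barcode of each gene, and 3 to 13 with 1 collection left out; Zg16 turned to -0.61 without the top barcode of each gene, and leaving out 1 collection gave -0.47 (without flox 2) to 2.38 (without flox 3). The difference in shares was below 0 in all alternatives, from -5.68 to -0.47 percentage points with 1 collection left out, and from -4.76 to -0.24 at 1000 UMIs; at 500 UMIs it was -0.03. Causes were not tested. The sets within barcode sharing, the settings on shared, top and hormone-rich barcodes and those of the interaction were added after seeing the data. Depth limits the rule: 1924 of 4890 barcodes were below 1000 UMIs.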
